A study of Mus musculus with 12 samples.

Results

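Among 12420 hepatocyte nuclei of the Cell Suspension samples, 363 nuclei (2.92%) did not carry the annotation of the freshly isolated cells (Isolated Hepatocytes) but that of hepatocytes in liver tissue (Hepatocytes). They are called tissue-annotated nuclei here and were chosen by 3 entries of the authors' table of nuclei, namely sample type Cell Suspension, cell type Hepatocytes and any cluster except 19. The whole table holds 53467 nuclei. They were compared with the 12057 Isolated Hepatocytes of the same samples and with 13927 Liver nuclei annotated Hepatocytes outside cluster 19. The annotation came from clustering the same RNA counts, so some likeness of the tissue-annotated nuclei to Liver is built into their choice.

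The study followed hepatocytes from liver tissue to suspension to culture in 8 wild-type mice (strain C57BL6J in the labels and C57BL/6NTac in the study's methods), which were male, fed chow and aged 10 to 12 weeks. Liver samples were pieces cut after a calcium-free perfusion and snap frozen, before any collagenase. Cell Suspension samples were pellets of the liver of the same mouse, snap frozen after collagenase perfusion, straining and washing. Primary Hepatocytes, cultured for 24 hours, enter only as neighbours in the sequencing pools. Nuclei of 24 samples were stained with hashtag antibodies, mixed in 6 pools of 4 samples and sequenced with droplet-based single-nucleus RNA sequencing. Each group had 8 samples, 1 per mouse.

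Hepatocytes perform the metabolic work of the liver, and this work is divided along the lobule. Cells around the portal vein (periportal) are known for making glucose and urea, whereas cells around the central vein (pericentral) are known for glutamine synthesis and drug metabolism. Immediate early genes such as Jun, Fos, Fosb, Egr1 and Atf3 encode transcription factors that are switched on within minutes of stress or mitogens without new protein synthesis, and they are a known mark of tissue digestion. Because a nucleus holds newly made RNA, unspliced transcripts form a large share of what it yields.

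The tissue-annotated nuclei occurred in all 8 Cell Suspension samples. They numbered 55, 16, 79, 22, 40, 82, 48 and 21 in mice 1 to 8. As a share of the hepatocytes of the sample, they were lowest in mouse 4 at 0.860% (95% exact binomial interval 0.540% to 1.30%) and highest in mouse 3 at 8.30% (6.62% to 10.2%). The shares of mice 1, 2, 5, 6, 7 and 8 were 3.31%, 1.41%, 2.64%, 3.29%, 7.33% and 1.45%. These intervals cover counting error only. Counting the 169 further Cell Suspension nuclei in cluster 19 would raise the overall share to 4.23%. Mouse 7 would then hold the highest share at 10.1%, above mouse 3 at 8.78%, and mouse 6 would rise to 6.47%.

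The pools differed in whether they held Liver samples. The Cell Suspension samples of mice 1, 2 and 3 were in pools without any Liver sample, and they held 150 of the 363 nuclei. The other 213 came from pools with 1 Liver sample (mice 4, 5 and 8) or 3 Liver samples (mice 6 and 7). Shares ran from 1.41% to 8.30% in the former samples and from 0.860% to 7.33% in the latter, so the ranges overlapped. The part of hashtag assignment in the annotation was not tested. Barcode strings are reused between pools, and 9 of the 363 nuclei had a barcode that also occurred in another pool. Among all 53467 nuclei, 676 barcodes occurred in more than 1 pool.

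By author cluster, 142 of the nuclei (39.1%) were in clusters 18 and 23, which held 9.98% of the Liver hepatocytes. The list of pericentral genes summed to 10731 CPM (UMIs per 1000000 UMIs of the summed nuclei) in these nuclei and to 10359 in the Liver nuclei of the same clusters. The other 221 nuclei were spread over clusters 5, 6, 9, 11, 13, 15 and 22, where the same list summed to 1595 CPM in tissue-annotated and 1792 in Liver nuclei. Of the 126 nuclei in cluster 18, 42 came from mouse 1 and 48 from mouse 3. Every one of these 9 clusters was mostly made of Liver nuclei.

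**Figure D1:**
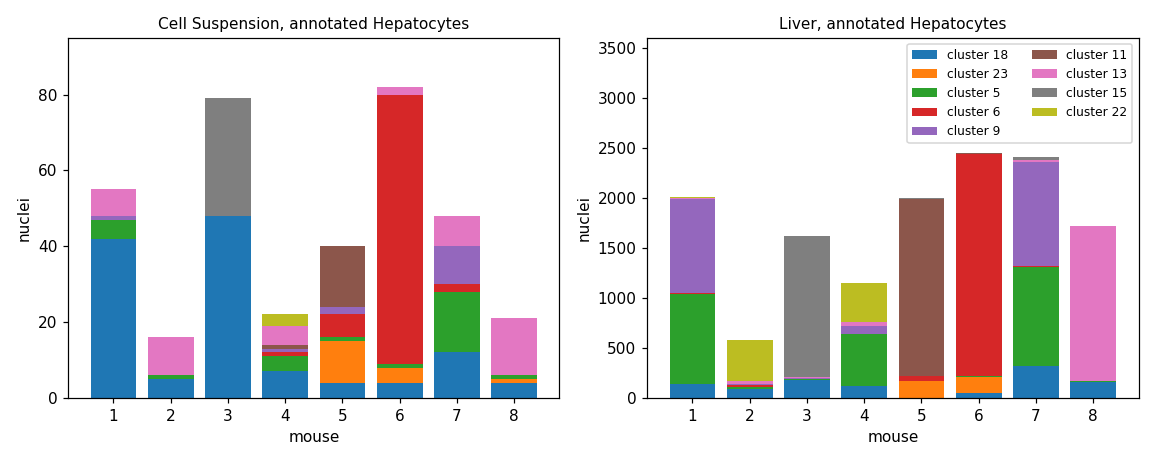
Number of tissue-annotated Cell Suspension nuclei (left) and of Liver hepatocyte nuclei (right) for each mouse, stacked by author cluster. Clusters 18 and 23 form the base of each bar, and the cluster that dominates the Liver bar of mice 3, 5, 6 and 8 also holds many of the tissue-annotated nuclei of the same mouse.

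Outside clusters 18 and 23, several Liver clusters were nearly private to a mouse, and in 4 of 8 mice most tissue-annotated nuclei sat in the main Liver cluster of their own mouse. All 31 such nuclei of mouse 3 were in cluster 15, which held 1415 of the 1442 Liver nuclei of mouse 3 outside clusters 18 and 23. In mouse 6, 71 of 74 were in cluster 6, in mouse 8, 15 of 16 were in cluster 13, and in mouse 5, 16 of 25 were in cluster 11, each the main Liver cluster of that mouse. The Liver samples of mice 3, 5 and 8 were in other pools than the Cell Suspension samples. In the other mice this was a minority, with 1 of 13 nuclei in mouse 1, 0 of 11 in mouse 2, 4 of 15 in mouse 4 and 10 of 36 in mouse 7. The Liver nuclei of mice 1 and 7 were split between cluster 9 (939 and 1034) and cluster 5 (900 and 987), and cluster 5 held a further 5 and 16 of their tissue-annotated nuclei. Cluster 13, the main Liver cluster of mouse 8, held 7, 10, 5, 2 and 8 tissue-annotated nuclei of mice 1, 2, 4, 6 and 7.

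The summed profiles were compared by correlation. For each mouse, the deviation of the tissue-annotated sum from the mean of the Cell Suspension sums was correlated, across 7858 genes of at least 10 CPM, with the deviation of each Liver sum from the Liver mean. In 6 of 7 mice the nearest Liver sample was that of the same mouse, with r from 0.184 in mouse 4 to 0.613 in mouse 3. For mouse 1 it ranked second, at 0.192 against 0.282 for mouse 7. The Isolated Hepatocytes were nearest to the Liver of their own mouse in 8 of 8 samples, with r from 0.446 to 0.800. Their sums were deeper (1775969 to 17196713 UMIs against 68450 to 1060056), and the part of depth in r was not tested. Mouse 2 had 16 tissue-annotated nuclei and was left out, since a sum needed 20. These correlations are across genes, which are not independent replicates, and carry no test.

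**Figure D2:**
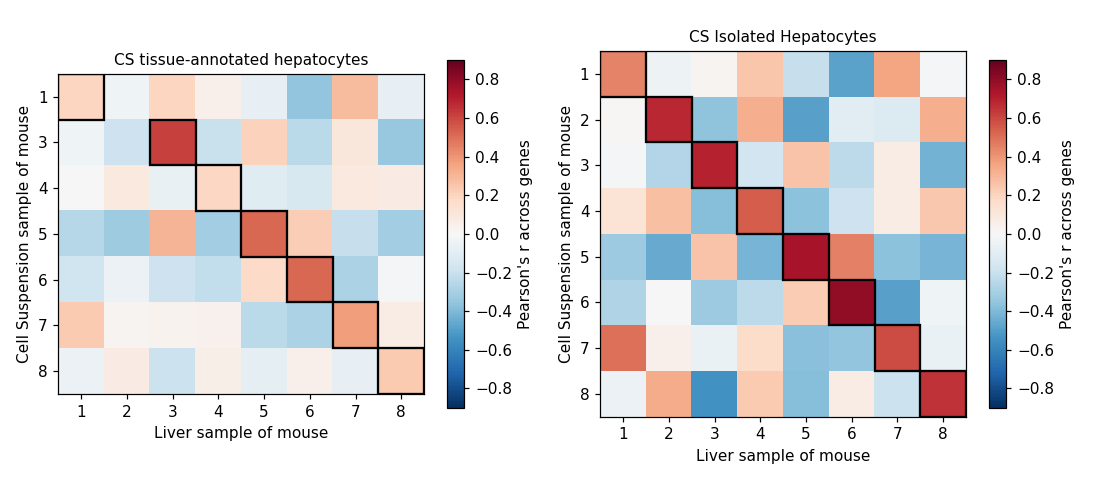
Pearson correlation across genes between the deviation of each Cell Suspension sum (rows, by mouse) and that of each Liver hepatocyte sum (columns, by mouse), for tissue-annotated nuclei (left) and Isolated Hepatocytes (right). Framed cells mark the same mouse and hold the highest value of their row in 6 of 7 rows on the left and 8 of 8 on the right.

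Sums of UMIs per mouse and set held 68450 to 1060056 UMIs for tissue-annotated nuclei, 1775969 to 17196713 for Isolated Hepatocytes and 6389167 to 28963915 for Liver.  Fold changes and adjusted p-values come from edgeR's quasi-likelihood test over 24476 genes with Benjamini-Hochberg adjustment. As a description, 10 hepatocyte markers summed to 10495 to 20657 CPM in tissue-annotated nuclei and 10813 to 16904 in Liver. The label came from the same RNA counts, so these sums do not test it.

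The first comparison asked how far the genes that respond to isolation differed between these nuclei and the tissue they were annotated as. The list of early response genes, which holds Jun, Atf3 and Fosb, was chosen with earlier results of these data known. Of its 30 genes, 22 were higher in tissue-annotated nuclei than in Liver and 0 were lower, with a median log2 fold change of 2.72. Over all genes, 1.86% were called higher and 3.18% lower, and the median was -0.32 (-0.02 among genes of at least 50 CPM). In Isolated Hepatocytes, 27 of the 30 were higher than in Liver, where 6.59% of all genes were, with a median of 2.83. Both comparisons share the Liver sums. In 13 of the 30 genes the tissue-annotated and Liver sums did not overlap, against 12.0% of all genes and 4.13% of genes of at least 50 CPM.

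Jun (ENSMUSG00000052684, chr4:95049034-95052222, minus strand, GRCm38) encodes c-Jun, a subunit of the AP-1 transcription factor. Its level in tissue-annotated nuclei was 1332, 860, 1068, 833, 546, 799 and 979 CPM in mice 1 and 3 to 8, and 567 in the 16 nuclei of mouse 2. Liver held 30.4 to 65.7, and Isolated Hepatocytes held 1118 to 2272. The sums did not overlap with Liver, and in each mouse the tissue-annotated value was below the Isolated value. Jun was 4.32 ± 0.22 (SE) higher than in Liver on the log2 scale, with an adjusted p of 6.64e-15 by edgeR, and the Isolated Hepatocytes were 5.25 higher.

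Atf3 (ENSMUSG00000026628, chr1:191170296-191218039, minus strand), a stress-induced factor of the ATF/CREB family, ranged from 73.0 CPM in mouse 8 to 911 in mouse 1, with a median of 404. In Liver the range was 2.72 to 10.8, and in Isolated Hepatocytes 483 to 1344. The spread among tissue-annotated sums was thus wide, with mice 6, 7 and 8 under 200 and mouse 1 over 900, yet each lay above every Liver sum. The value of mouse 8 rests on few UMIs, in a sum of 68450. The log2 fold change against Liver was 6.23 ± 0.44 (adjusted p = 2.39e-11, edgeR).

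Fosb (ENSMUSG00000003545, chr7:19302696-19310051, minus strand), a Fos family partner of Jun in AP-1, was at 391, 164, 169, 278, 23.9, 191 and 117 CPM in mice 1 and 3 to 8. The value of mouse 6 rests on few UMIs, in a sum of 208967. Fosb was nearly silent in Liver, at 0.461 to 1.64. Isolated Hepatocytes held 76.8 to 349, a range that the tissue-annotated values overlapped. The log2 fold change was 7.81 ± 0.42 (adjusted p = 3.93e-14, edgeR), beside 7.82 in Isolated Hepatocytes.

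**Figure D3:**
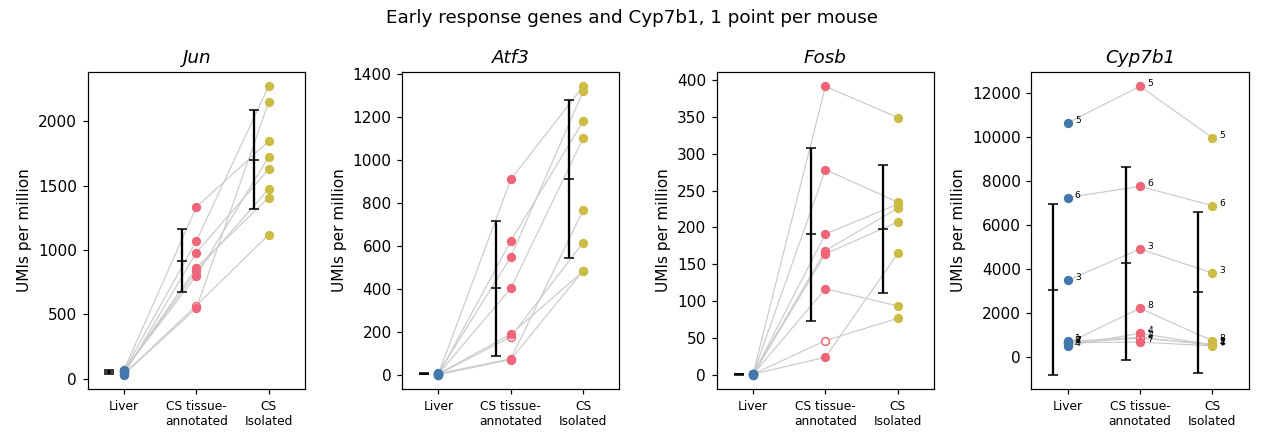
CPM of Jun, Atf3, Fosb and Cyp7b1 in Liver hepatocytes, tissue-annotated Cell Suspension nuclei and Isolated Hepatocytes, 1 point per mouse with lines joining the same mouse and mouse numbers shown for Cyp7b1. Bars give the mean and SD without the open point, the 16 nuclei of mouse 2; the 3 early response genes are above Liver in every Cell Suspension sum, whereas Cyp7b1 is high in mice 3, 5 and 6 in every set.

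Other members of the list moved alike. Fos rose by 5.66 ± 0.22 on the log2 scale, from 2.37 to 4.61 CPM in Liver to 73.0 to 216 in tissue-annotated nuclei, and Egr1, a zinc finger factor, by 4.34 ± 0.28. Ier2 (4.68), Btg2 (4.56), a growth-restraining gene, and Gadd45a (3.84), a stress sensor, were higher as well. Among those that did not pass the test were Myc (log2 fold change 1.46, adjusted p = 0.37) and Nr4a2 (1.45, adjusted p = 0.061), both of which passed with mouse as replicate block (adjusted p = 0.0055 and 0.0016). With this block 24 of the 30 were higher, where 3.65% of all genes were. Egr3 had no UMI in any of the 7 tissue-annotated sums.

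The promoters of Jun, Atf3, Fosb and Btg2, which moved together, are shown because the family that binds the cyclic AMP response element (CRE) includes the product of Atf3 itself. Each stretch runs 5′ to 3′ on the gene's strand, from 250 bases before to 50 after the start in RefSeq (GRCm38.p6), which for Atf3 lies inside the longer gene interval given above. Capitals mark matches on either strand to TGANTCA (AP-1), TGACGTCA (full CRE), TGACGT (short CRE), TGANNTCA (CRE with free middle bases, chosen after the Jun sequence was read) or the CArG box, and the full CRE also counts under both other CRE forms.
Jun, chr4:95052173-95052472: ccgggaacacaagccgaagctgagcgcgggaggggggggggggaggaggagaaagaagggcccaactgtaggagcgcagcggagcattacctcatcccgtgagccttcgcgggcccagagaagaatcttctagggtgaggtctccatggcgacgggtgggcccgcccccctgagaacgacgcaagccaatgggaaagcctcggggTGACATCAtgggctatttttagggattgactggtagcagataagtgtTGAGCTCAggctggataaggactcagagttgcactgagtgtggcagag
Atf3, chr1:191183284-191183583: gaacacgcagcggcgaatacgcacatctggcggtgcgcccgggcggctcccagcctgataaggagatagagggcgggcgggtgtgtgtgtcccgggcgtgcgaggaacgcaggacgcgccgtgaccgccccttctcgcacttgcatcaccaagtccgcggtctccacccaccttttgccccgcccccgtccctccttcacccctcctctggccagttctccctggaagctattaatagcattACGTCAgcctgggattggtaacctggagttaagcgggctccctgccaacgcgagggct
Fosb, chr7:19309996-19310295: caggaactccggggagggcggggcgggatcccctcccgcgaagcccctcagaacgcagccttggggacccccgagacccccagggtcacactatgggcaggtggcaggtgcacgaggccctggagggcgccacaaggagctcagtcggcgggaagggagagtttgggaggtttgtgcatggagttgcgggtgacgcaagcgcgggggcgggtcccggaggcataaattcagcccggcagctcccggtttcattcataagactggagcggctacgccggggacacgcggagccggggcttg
Btg2, chr1:134079106-134079405: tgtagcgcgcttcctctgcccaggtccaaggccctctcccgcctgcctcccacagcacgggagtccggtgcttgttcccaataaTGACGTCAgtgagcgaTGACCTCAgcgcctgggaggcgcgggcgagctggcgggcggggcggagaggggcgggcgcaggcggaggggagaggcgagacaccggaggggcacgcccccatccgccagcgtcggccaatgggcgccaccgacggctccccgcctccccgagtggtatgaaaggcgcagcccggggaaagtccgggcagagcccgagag
Jun held TGANNTCA at bases 206 to 213 and 253 to 260 of the stretch, Atf3 a short CRE at bases 243 to 248, and Btg2 a full CRE at bases 85 to 92 and TGANNTCA at bases 101 to 108, whereas Fosb held none of these letters. Of the 22 early response genes called higher, 19 had a promoter entry. The full CRE was in 3 of them, against 2.69% of the 16704 tested genes with an entry and 1.79% of all 32851 entries. The short CRE was in 6 (10.3% and 7.51%), TGANNTCA in 7 (13.9% and 14.1%), the AP-1 letters in 1 (8.16% and 7.81%) and the CArG box in 2 (1.59% and 1.63%). A match describes letters only.

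The early response varied among the tissue-annotated nuclei. In clusters 18 and 23, the 30 genes together made up 6166 CPM, against 2813 in the other clusters, 7503 in Isolated Hepatocytes and 410 in Liver. Outside clusters 18 and 23 the sums of the 8 mice ran from 2202 to 3327, below all Isolated sums (5264 to 8666) and above all Liver sums (283 to 468). Jun stood at 1421, 1009, 1197 and 1008 CPM in the clusters 18 and 23 nuclei of mice 1, 3, 5 and 7, and at 442 to 762 in the remaining nuclei. Fosb stood at 420, 238, 579 and 369 against at most 126. Without clusters 18 and 23, with 4 tissue-annotated sums in place of 7, 11 of the 30 genes were called higher than in Liver (0.186% of all genes were higher and 0.153% lower). The log2 fold change of Jun was then 3.65 (adjusted p = 3.91e-11), that of Atf3 4.78 (adjusted p = 4.41e-09) and that of Fosb 5.39 (adjusted p = 7.16e-06) by edgeR.

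Single nuclei gave the same order. After drawing 1000 UMIs from each nucleus, the median count over the 30 genes was 3 in the 190 nuclei outside clusters 18 and 23, 6 in the 135 inside, 8 in Isolated Hepatocytes and 0 in Liver. Nuclei without any such UMI were 14.2%, 0.741%, 0.554% and 67.3% of these sets. The draw left out 38 tissue-annotated, 331 Isolated and 258 Liver nuclei under 1000 UMIs, and 28 of those 38 were from mouse 6. Before drawing, summed levels had the same order.

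**Figure D4:**
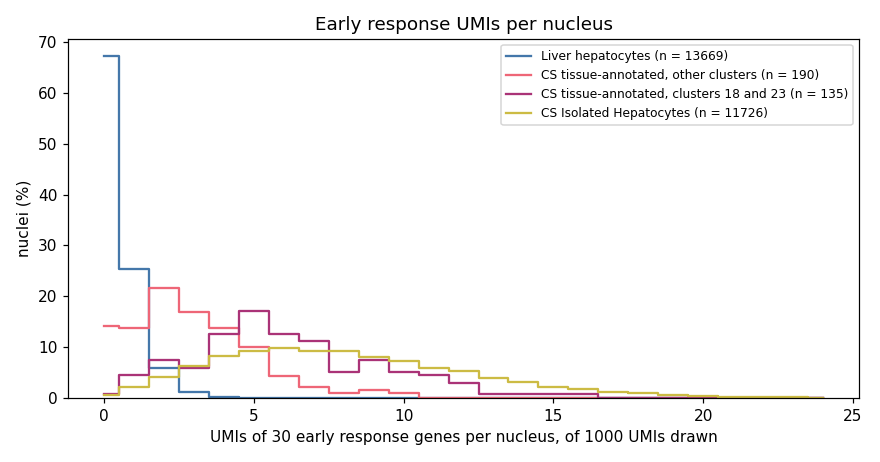
Percentage of nuclei (vertical axis) by number of early response UMIs among 1000 drawn UMIs per nucleus (horizontal axis). Liver nuclei peak at 0, tissue-annotated nuclei outside clusters 18 and 23 have a median of 3, those inside 6, and Isolated Hepatocytes 8.

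Cyp7b1 (ENSMUSG00000039519, chr3:18071950-18243338, minus strand), which hydroxylates oxysterols on the alternative route to bile acids, varied between mice in each set. In tissue-annotated nuclei it was 905, 863, 4914, 1085, 12307, 7762, 686 and 2221 CPM in mice 1 to 8. In Liver the values were 714, 661, 3488, 529, 10646, 7251, 662 and 637, and in Isolated Hepatocytes 554, 595, 3827, 555, 9974, 6888, 514 and 748. Mice 3, 5 and 6 were thus high in each set, and the 4 Cell Suspension samples with the lowest tissue-annotated values came from mice that were low in Liver. Mouse 8 stood out with 2221 against 637 in its Liver, a sum of 68450 UMIs. Cyp7b1 was not called against Liver (log2 fold change 0.58 ± 0.77, adjusted p = 0.77), but it was with the mouse as replicate block (0.66, adjusted p = 5.72e-05, edgeR).

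In all, 1234 genes (5.04%) were called between tissue-annotated nuclei and Liver, 456 higher and 778 lower, beside 4811 (19.7%) between Isolated Hepatocytes and Liver. These counts rest on unlike depth, with 68450 to 1060056 UMIs per tissue-annotated sum and 1775969 to 17196713 per Isolated sum. With every sum thinned to the lowest total, 152 of 9301 tested genes were called for tissue-annotated nuclei. The closing section gives the count of Isolated Hepatocytes at that depth. Without clusters 18 and 23, where 4 tissue-annotated sums in place of 7 reached 20 nuclei, 82 genes were called, 75 of them among the 1234. Clusters 18 and 23 alone gave 1005, on 4 sums of at least 10 nuclei, of which mice 5 and 7 had 15 and 12, so that this count and the 82 rest on different limits and mice. The count was 505 without mouse 1 and 644 without mouse 3. These mice had both the most cluster 18 nuclei and the deepest tissue-annotated sums (802287 and 1060056 UMIs), and the part of either was not tested. With mouse as replicate block, 2214 genes were called. The split into higher and lower depended on scaling, at 537 and 511 with RLE factors, 2873 and 744 in DESeq2, and 341 and 2229 with TMM factors from all genes.

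The 5 called genes with the largest rises among those of at least 50 CPM without overlap were Fosb, Atf3, Pdk4, Fos and Ccn1. Pdk4, a kinase that shuts off pyruvate dehydrogenase in fasting, was at 637, 671, 438, 179, 28.7, 97.5 and 29.2 CPM in mice 1 and 3 to 8, with 0.659 to 14.8 in Liver and 6.48 to 115 in Isolated Hepatocytes. The values of mice 6 and 8 rest on few UMIs, in sums of 208967 and 68450, and so does the lack of overlap with Liver. The log2 fold change of Pdk4 was 5.95 ± 0.74 against Liver (adjusted p = 3.82e-06, edgeR). The level was carried by clusters 18 and 23, at 736 CPM against 26.01 in the Liver nuclei of these clusters, and outside them it was 12.5 against 3.56, with no call (adjusted p = 0.90). Ccn1, a matricellular protein gene and a target of YAP, rose by 4.95 ± 0.37, to 566 in clusters 18 and 23 and 62.7 outside.

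The 5 largest falls were smaller. Hmcn2 (-2.06 ± 0.43), an extracellular matrix gene, Gm32063 (-1.70), Adh7 (-1.47), an alcohol dehydrogenase, 5031425E22Rik (-1.39) and Srr (-1.28), serine racemase, were lower than in Liver. All 5 were also lower in Isolated Hepatocytes, with log2 fold changes of -2.02 to -1.14. Srr, for example, was at 29.2 to 105 CPM in tissue-annotated nuclei and 173 to 218 in Liver. Without clusters 18 and 23, on 4 sums, Hmcn2 (-1.01, adjusted p = 0.56) and Gm32063 (-1.42, adjusted p = 0.16) were not called, and in clusters 18 and 23 alone Hmcn2 was not (-1.93, adjusted p = 0.23).

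Zonation genes varied with the clusters. Of 11 pericentral genes 3 were higher than in Liver (1.86% of all genes) and 0 lower, with a median of 0.63. The median was negative when the clusters were separated, at -0.29 without clusters 18 and 23 and -0.63 in them alone. Glul, glutamine synthetase, was at 371 to 2473 CPM against 121 to 283 in Liver (log2 fold change 2.87 ± 0.36, adjusted p = 3.70e-06). Oat (2.93) and the glutamate transporter Slc1a2 (2.37) were higher too, while Slc1a2 was lower in Isolated Hepatocytes (-1.87). Within clusters 18 and 23, Slc1a2 was at 3669 CPM in tissue-annotated and 3627 in Liver nuclei, and Glul at 2728 and 1760. In these clusters alone Oat was called (1.38, adjusted p = 0.00016), and Glul (0.65, adjusted p = 0.33) and Slc1a2 (0.09, adjusted p = 0.90) were not. Outside these clusters 1 pericentral gene, Glul, was called (2.07, adjusted p = 0.0155). With mouse as replicate block, 9 of the 11 were higher, where 3.65% of all genes were.

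Of 11 periportal genes 1, Cyp2f2, was lower (-1.07 ± 0.31, adjusted p = 0.035) and 0 were higher, with a median of -0.49, where 3.18% of all genes were lower. The median turned to 0.24 without clusters 18 and 23 and was -1.02 in them alone. Cyp2f2 was not called without clusters 18 and 23 (-0.36, adjusted p = 0.86), and 0 of the 11 were called without mouse 1, 2, 3, 4 or 5. With mouse as replicate block 6 were lower (5.40% of all genes). When nuclei whose second hashtag was a Liver tag were left out, 3 sums (mice 1, 3 and 5) remained, and 8 were lower with a median of -1.67 (4.30% of all genes were lower). Hal, histidine ammonia-lyase, was at 14.8 CPM inside and 683 outside clusters 18 and 23. Cps1, the urea cycle's entry enzyme, was at 342 and 5831.

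Of 12 heat shock genes, 5 were higher (1.86% of all genes) and 0 lower, with a median of 0.94, and 7 were higher with the block (3.65% of all genes). They included Hspa8 (2.12 ± 0.22), a constitutive chaperone, and its cochaperone Dnajb1 (2.69 ± 0.35). Without clusters 18 and 23, Hspa8 alone was called among them (1.25, adjusted p = 0.0059), and the median was -0.04. Of 13 fasting and gluconeogenesis genes, 2 were higher (1.86% of all genes) and 0 lower, with a median of 0.43. G6pc, glucose-6-phosphatase, rose by 0.99 ± 0.23 from 271 to 1971 CPM in Liver to 1426 to 2595. Igfbp1, a secreted binder of insulin-like growth factors, rose by 2.37 ± 0.39. Without clusters 18 and 23, on 4 sums, neither was called (G6pc 0.75, adjusted p = 0.41, and Igfbp1 1.37, adjusted p = 0.34). Pck1, which commits carbon to glucose synthesis, was not called (0.59, adjusted p = 0.18) except with the block (adjusted p = 0.00024), while it was 1.57 higher in Isolated Hepatocytes. With mouse as replicate block, 6 of these 13 genes were higher and 1 lower, where 3.65% and 5.40% of all genes were.

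For the lists that follow, 1.86% of all genes were higher and 3.18% lower, and with mouse as replicate block 3.65% and 5.40%. Of 14 bile acid genes, Akr1d1 (-0.83) and Slc27a5 (-0.67) were lower and 0 were higher; with mouse as replicate block 4 were lower and 4 higher. Of 15 liver transcription factors, Cebpb (2.01) and Esrrg (1.13) were higher and Foxa3 (-1.79) was lower, and with the block 3 were higher and 3 lower. Hnf4a did not pass (-0.35, adjusted p = 0.28) but was lower with the block (-0.33, adjusted p = 0.037). Esrrg was called neither in clusters 18 and 23 alone (0.35, adjusted p = 0.50) nor without them (0.19, adjusted p = 0.90), and Foxa3 was not called without them (-1.23, adjusted p = 0.29). Of 17 clock genes, Nr1d1 (1.31) and Nfil3 (1.55) were higher, and with the block 4 were higher and 2 lower. Without clusters 18 and 23, on 4 sums, 0 of the bile acid and 0 of the clock genes were called. By edgeR, Akr1d1 was then at -0.90 (adjusted p = 0.23), Slc27a5 at -0.50 (adjusted p = 0.61), Nr1d1 at 0.71 (adjusted p = 0.66) and Nfil3 at 0.49 (adjusted p = 0.90). Of 78 cytosolic ribosomal genes tested, 2 were lower, and 6 with the block. Of 13 mitochondrially encoded genes, mt-Nd1 was higher (0.93, adjusted p = 0.034), and 2 with the block. None of the 13 was called by edgeR without mouse 1, 2, 4, 6 or 8. In DESeq2 9 were called, where 3617 of 24476 genes were called either way and the median over all genes was 0.33. With sums of 10 nuclei allowed in edgeR, which added mouse 2, 10 were called, where 1258 of 24480 genes were called either way.

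Against Isolated Hepatocytes no test applies, because the annotation separates these sets by the same counts. The 5 genes furthest above were Hcrtr2, Slc1a2, Rcan2, Kif26b and Slc22a3. Each was higher inside clusters 18 and 23 than outside, as in Slc1a2 at 3669 and 45.2 CPM. The 5 furthest below were Fasn, Slc20a1, Mfsd2a, Ak4 and Igfbp2. Fasn, fatty acid synthase, was at 167 to 550 CPM in tissue-annotated nuclei, 598 to 1617 in Isolated Hepatocytes and 50.5 to 279 in Liver, and was lower than in Isolated Hepatocytes in each mouse.

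Markers of other cell types were compared as well. Endothelial markers (6 genes) summed to 16.1 to 175 CPM in tissue-annotated nuclei, 19.6 to 49.6 in Isolated Hepatocytes and 19.7 to 33.2 in Liver. Among them Stab2, a scavenger receptor of sinusoidal endothelium, was called (1.399, adjusted p = 0.032), with 76.6 in mouse 6 and 87.7 in mouse 8 against 3.75 to 21.2 in the other 5 sums. With mouse as replicate block Ptprb, a phosphatase of endothelial cells, was called too (1.25, adjusted p = 0.0067). The leukocyte marker Themis, a T cell signalling gene, was called too (1.46, adjusted p = 0.011), at 0 to 48.8 CPM against 5.28 to 14.5 in Liver. It was the only 1 of the 5 leukocyte markers called, and their median log2 fold change was -0.42. Neither Stab2 nor Themis was called without clusters 18 and 23 (1.43, adjusted p = 0.56, and 0.61, adjusted p = 0.90) or in them alone (0.42, adjusted p = 0.58, and -0.19, adjusted p = 0.84). Kupffer markers (6 genes) summed to 0 to 11.3, stellate markers (6) to 119 to 254, leukocyte markers (5) to 16.1 to 60.0 and biliary markers (6) to 73.0 to 178, with Liver ranges of 4.36 to 12.8, 116 to 354, 12.7 to 31.4 and 136 to 203. Of 7 genes that mark cultured hepatocytes, 5 were higher than in Liver (1.86% of all genes), among them Hmox1 (3.40), with a median of 1.31. In Isolated Hepatocytes 6 of the 7 were higher than in Liver (6.59% of all genes), with a median log2 fold change of 2.51. Without clusters 18 and 23, 0 of the 7 were called (Hmox1 0.27, adjusted p = 0.94, edgeR). There, 0.186% of all genes were higher and 0.153% lower. On those 4 sums the log2 fold change was 2.58 for Mt2, 1.30 for Creb5, 0.95 for Saa1 and 0.87 for Runx1. It was -0.08 for Slc2a1 and -4.43 for Sprr1a. The 7 genes summed to 43.1 to 219 CPM against 23.7 to 47.1 in Liver and 32.7 to 272 in Isolated Hepatocytes. The part of these cells in the results was not tested.

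The hashtag margin was lower in the tissue-annotated nuclei. The margin is a value per nucleus from the authors' hashtag assignment, with a highest value of 1, and its exact definition is not given in the sources used here. The median margin was 0.946, 0.831, 0.961, 0.959, 0.968, 0.958 and 0.960 in mice 1 and 3 to 8, against 0.957 to 0.985 in the matched Isolated Hepatocytes. In 7 of 7 samples the tissue-annotated value was the lower, with a mean difference of -0.0380 (exact permutation of signs within pairs, 2-sided, p = 0.0156, which this design cannot go below, adjusted over 9 tests p = 0.0469). Against Liver nuclei of the same mouse it was lower in 7 of 7, with a mean difference of -0.0509, with the same p values. Only in mice 6 and 7 did the Liver and Cell Suspension samples share a pool, and each sample had its own hashtag. In this comparison set, tag and pool cannot be told apart. Both adjusted values count, among the 9 tests, the unspliced share against Isolated Hepatocytes, which tied at the same p. That share is given below as a description only, and without it neither adjusted value would fall under 0.05. Hashtag UMIs per nucleus moved with the margin, at 1182 ± 443 (SD, n = 7) against 1356 ± 527 in Isolated Hepatocytes, lower in 7 of 7 samples, and 1880 ± 683 in Liver, lower in 6 of 7, and their part in the margin was not tested. Without mouse 3 the mean differences in margin were -0.0235 and -0.0331. In all, 70 of the 363 nuclei reached the overall median of the Isolated Hepatocytes (0.982), which pools samples of unlike margin. By sample these were 6, 7, 1, 5, 8, 19, 17 and 7 nuclei in mice 1 to 8. The difference was also present in the pools without Liver, at 0.946 against 0.981 in mouse 1 and 0.831 against 0.957 in mouse 3.

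Of all hashtag UMIs, the part belonging to the assigned tag was lower than in Isolated Hepatocytes in 6 of 7 samples, with a mean difference of -6.32 percentage points (42.5 ± 11.02 against 48.8 ± 11.3%, SD, n = 7, exact paired permutation p = 0.0313, adjusted p = 0.0703). In the pools where other sample types stood beside a Liver sample, the share on Liver tags was 24.0%, 14.2% and 11.7% in mice 4, 5 and 8, against 20.3%, 11.9% and 11.6% in Isolated Hepatocytes. In mice 6 and 7 all other tags of the pool were Liver tags, so this share adds nothing to that of the assigned tag. The second hashtag was informative in 3 samples. It was a Liver tag in 31.8%, 12.5% and 33.3% of the tissue-annotated nuclei of mice 4, 5 and 8, against 12.8%, 10.4% and 47.5% of the Isolated Hepatocytes. With 3 informative samples no p under 0.25 was possible, and the observed exact p was 0.75.

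**Figure D5:**
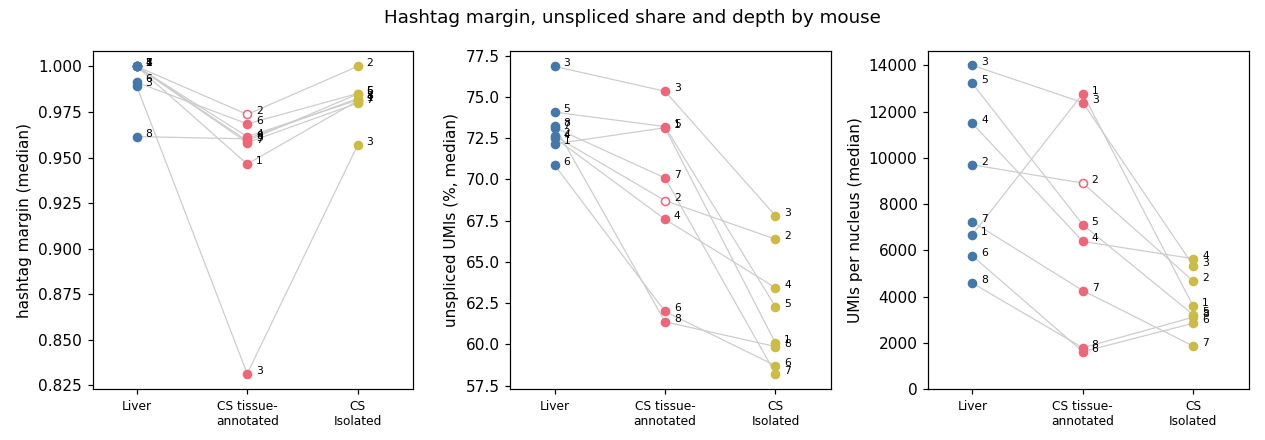
Median hashtag margin, unspliced share of UMIs and UMIs per nucleus in Liver hepatocytes, tissue-annotated Cell Suspension nuclei and Isolated Hepatocytes, with points numbered by mouse and lines joining the same mouse. The open point is mouse 2 with 16 nuclei; margins of tissue-annotated nuclei lie below those of Isolated Hepatocytes in each mouse and unspliced shares lie above them.

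The unspliced share of UMIs was 73.1, 75.3, 67.6, 73.2, 62.0, 70.1 and 61.4% in the tissue-annotated nuclei of mice 1 and 3 to 8. Isolated Hepatocytes had 58.2 to 67.8% and Liver 70.9 to 76.8%. It was above the Isolated value in 7 of 7 samples, by 7.47 percentage points on average, which is a description because the annotation came from the same RNA counts. Against Liver it was lower in 6 of 7, with a difference of -4.31 points, which did not hold after adjustment (exact p = 0.0469, adjusted p = 0.0844).

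Depth varied between mice. The median UMIs per nucleus were 12777 and 12391 in mice 1 and 3, 6386, 7106 and 4259 in mice 4, 5 and 7, and 1617 and 1785 in mice 6 and 8. Isolated Hepatocytes had 1858 to 5638 and Liver 4584 to 14003, and the paired difference from Liver did not pass the test (adjusted p = 0.19, exact paired permutation). In mouse 1 the 42 nuclei of clusters 18 and 23 had a median of 14894 UMIs, against 6022 in the Liver nuclei of these clusters. The nuclei of these clusters were also deeper than Liver in mice 2, 3 and 4 (9755, 13489 and 11191 against 7783, 12289 and 10401) and shallower in mice 5, 6, 7 and 8 (9047, 2057, 7312 and 1539 against 14192, 6325, 7981 and 4260). In the nuclei outside clusters 18 and 23, mitochondrial RNA made up 1.92% of UMIs in mouse 1 and 1.52% in mouse 2, and 0.0711 to 0.182% in mice 3 to 8.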

How the data were processed

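Hashtagged nuclei of 24 samples (6 pools) were sequenced by the authors with 10x Genomics 3′ chemistry. The authors quantified reads (Alevin and Alevin-fry of Salmon) against spliced and unspliced GRCm38 transcripts. The deposited matrices hold raw UMI counts per barcode and gene, and raw counts of hashtag UMIs. In the deposited table of nuclei, the authors give UMI counts, labels and the hashtag margin as a fraction. The authors removed doublets by hashtag and scDblFinder. No further nucleus was removed.

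Splicing states were added and UMIs summed per mouse and set (at least 20 nuclei: 7 tissue-annotated, 8 Isolated, 8 Liver sums), or at least 10 nuclei for clusters 18 and 23 alone and for mice 1, 2 and 3 alone. The 24476 genes of at least 10 counts entered edgeR 4.0.16 in R 4.3.3 (quasi-likelihood, 1 coefficient per set, no covariate, threshold 0.05). The script was tested on simulated data. TMM factors were taken from genes of at least 50 CPM in place of all genes, a choice made after the data were seen. Paired tests enumerated all sign flips over mice, on Python 3.11.15 with scipy 1.17.1. Likeness used log2 of CPM + 10.

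The nuclei and lists were chosen with earlier results of these data known. Named genes are Jun, Atf3, Fosb, Cyp7b1, list members, and the 5 most extreme each way in both contrasts. Samples of the same number come from the same mouse, hence the pairing. The hashtag CD2 was read as the Cell Suspension of mouse 2.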

Additional observations from a re-analysis of the deposited data

Results flagged for a closer look

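In 49 groups of 7 or 8 mice, a value was set apart where its gap to the nearest other exceeded Dixon's 95% limit, which chance does in about 1 group in 20, and 7 values were. The hashtag margin of mouse 3 was 0.831 in tissue-annotated nuclei, where the other 6 lay between 0.946 and 0.968, and 0.957 in Isolated Hepatocytes, where the others lay between 0.980 and 1. Mouse 8 had a margin of 0.961 in Liver, against 0.989 to 1. Ccn1 was at 21.5 CPM in the Liver of mouse 4, against 5.32 to 13.0. In the Isolated Hepatocytes of mouse 7, Hmcn2 was at 65.3 (others 20.3 to 35.5) and Gm32063 at 66.4 (others 23.2 to 36.6). 5031425E22Rik was at 102 in the tissue-annotated nuclei of mouse 8, against 71.8 to 78.8.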

How the results depend on the processing

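With mouse as replicate block, the calls against Liver moved from 1234 to 2214 genes (893 higher, 1321 lower) and those of Isolated Hepatocytes to 7434 (2657 higher). DESeq2 called 3617 (2873 higher), RLE factors 511 lower, spliced counts 266 (151 higher, 115 lower; Isolated 964 higher), and sums thinned to the lowest total 152 (129 higher, 23 lower; Isolated 225, with 173 and 52). A log2 limit of 1 left 806 (469 lower; Isolated 2042, with 779 and 1263). Alternatives chosen after seeing the data gave 82 without clusters 18 and 23 (45 higher, 37 lower) and 543 in mice 1, 2 and 3 alone (250, 293), with sums of 10 nuclei allowed so that mouse 2 could enter. TMM factors from all genes, the form first planned, gave 2570 calls (2229 of 24476 genes lower). The median of genes of at least 50 CPM then moved to -0.25. With these factors 8 ribosomal, 5 periportal, 4 liver transcription factor and 3 bile acid genes were lower. So was 1 gene each of the heat shock, fasting and clock lists. Leaving out 1 mouse gave 505 to 1208 (240 to 465 higher, 265 to 781 lower).

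Among 3 samples of at least 50 nuclei, where no p under 0.25 is possible, the margin differed by -0.0589 from Isolated and -0.0780 from Liver, the assigned-tag share by -8.77 from Isolated, the unspliced share by 7.96 and -3.13, and UMIs from Liver by 115, a reversal. Leaving out 1 mouse gave -7.42 to -5.82 and -17.6 to -9.58 for the tag share against Isolated and Liver, -5.19 to -3.05 for the unspliced share against Liver, -3791 to -1756 for UMIs against Liver, and -3.02 to 5.28 for the second hashtag, which reversed without mouse 4. The second hashtag means count mice 6 and 7, where both sets stood at 100% because every other tag of the pool was a Liver tag. Fosl1 reversed without clusters 18 and 23 (-3.98), and Junb (-0.0094) and Dusp1 (-0.21) in unspliced counts. The causes were not tested. The limits of clusters made mostly of Cell Suspension nuclei and of margins at the Isolated median left no sums and were not run. Leaving out 1 mouse gave margins of -0.0416 to -0.0235 and -0.0592 to -0.0331. Depth limits the sums of mice 4, 6 and 8 most.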
